A study of Saccharomyces cerevisiae with 4 samples.

Results

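The a-specific genes of budding yeast are expressed in cells of mating type a and turned off in cells of mating type α. They were followed here in an α strain given the taurine-conjugated bile acid tauroursodeoxycholic acid (TUDCA). The set holds 7 genes, taken by systematic name from the 7127 features of the count table: MFA1 (YDR461W), MFA2 (YNL145W), STE2 (YFL026W), STE6 (YKL209C), BAR1 (YIL015W), ASG7 (YJL170C) and AGA2 (YGL032C). Poly(A)-selected RNA was sequenced from BY4742, a haploid laboratory strain with the genotype MATα his3Δ1 leu2Δ0 lys2Δ0 ura3Δ0, growing exponentially in rich glucose medium (YPD). The TUDCA group received 5 mM TUDCA for 2 h and the Ctrl group received none, with 2 libraries each. Both groups share the strain and all its alleles, so both groups are cultures of a strain labelled as α.

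Mating type in budding yeast is set by the MAT locus. In α cells the homeodomain protein α2, encoded by MATα2, binds together with the MADS-box protein Mcm1 to an operator in front of each a-specific gene. The pair recruits the corepressor Tup1-Cyc8, which keeps these genes off. In a cells α2 is absent, and Mcm1 activates the same genes. Their products let an a cell make and export its pheromone, sense α-factor, degrade it and stick to a partner.

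The sequence that carries this control was located upstream of each gene in the R64 reference genome, the build named in the submitters' processing notes; all 7 genes had the same start and end in the table and in the reference. The operator is shown for every gene as the best match found, in full for 6 of the 7 and with 1 letter different for ASG7. It was searched on both strands of the 300 bases before the start codon as TGTNNNNNCCNNNNNNGGNNNNNNACA, an α2 half-site on each side of the Mcm1 core CCNNNNNNGG, or as TGTNNNNNCCNNNNNNGGNNNNNACA, with 1 base less before the last half-site. Its spacing was chosen after these promoters had been read. Capitals mark the fixed letters, and 12 bases are shown on either side. Sequences are written 5′ to 3′, for the longer form on the strand that matched. The fixed letters of the shorter form read the same on both strands, so it is written on the strand of its gene.
MFA1: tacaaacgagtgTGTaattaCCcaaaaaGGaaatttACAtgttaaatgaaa
MFA2: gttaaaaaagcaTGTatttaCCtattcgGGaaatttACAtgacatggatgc
STE2: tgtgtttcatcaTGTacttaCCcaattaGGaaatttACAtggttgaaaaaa
STE6: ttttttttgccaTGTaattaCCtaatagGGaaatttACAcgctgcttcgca
ASG7: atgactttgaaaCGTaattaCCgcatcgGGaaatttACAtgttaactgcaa
BAR1: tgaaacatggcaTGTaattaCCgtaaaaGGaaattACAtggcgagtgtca
AGA2: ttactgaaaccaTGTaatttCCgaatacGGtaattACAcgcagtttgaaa

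The 27-base matches lie at chrIV:1384944-1384970 on the plus strand for MFA1 and chrXIV:352165-352191 on the plus strand for MFA2. They lie on the minus strand at chrVI:82353-82379 for STE2, chrXI:46479-46505 for STE6 and chrX:101907-101933 for ASG7. The 26-base matches, which hold on both strands, lie at chrIX:322080-322105 for BAR1 and chrVII:437104-437129 for AGA2. They are written on the plus strand for BAR1 and the minus strand for AGA2. Of the 7 genes, 6 (all but ASG7) matched every fixed letter. ASG7 differed at 1 letter, T1C, with positions counted from the 5′ end of the operator. Between pairs of the 27-base forms, 21 to 24 bases were identical, the fewest between MFA1 and MFA2, between MFA1 and ASG7 and between STE2 and ASG7.

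One of these 2 forms was found in 9 of 5989 windows of the same length before protein-coding genes of the nuclear chromosomes, which is 0.15%. Of those windows 6 belonged to a-specific genes and 3 to other genes, 0.0502% of the windows of other genes. The other 3, named after the search, were APL3, an adaptor subunit gene, and SWC5 and PBP2, whose windows share 1 match. The form with the longer spacer was found in 4 windows, all of a-specific genes. The Mcm1 core alone was found before all 7 a-specific genes and in 28.7% of all windows. Because the spacing was chosen after these promoters had been read, the matches before a-specific genes are not a test of the pattern. A match describes letters and does not show that a protein was bound.

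Operators sat between 128 and 296 bases upstream of the start codon. AGA2 had the farthest, 271 to 296 bases upstream, and ASG7 the nearest, 128 to 154 bases upstream. The 300 bases before STE6, the gene with the most counts of the 7, are given as an example of the surrounding promoter (chrXI:46296-46595, minus strand, operator in capitals).
STE6: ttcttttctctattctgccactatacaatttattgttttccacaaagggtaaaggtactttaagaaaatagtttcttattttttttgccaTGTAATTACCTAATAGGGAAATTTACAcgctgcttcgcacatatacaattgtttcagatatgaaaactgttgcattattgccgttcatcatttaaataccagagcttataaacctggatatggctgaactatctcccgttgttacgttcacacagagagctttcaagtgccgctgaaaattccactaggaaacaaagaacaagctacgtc

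**Figure D1:**
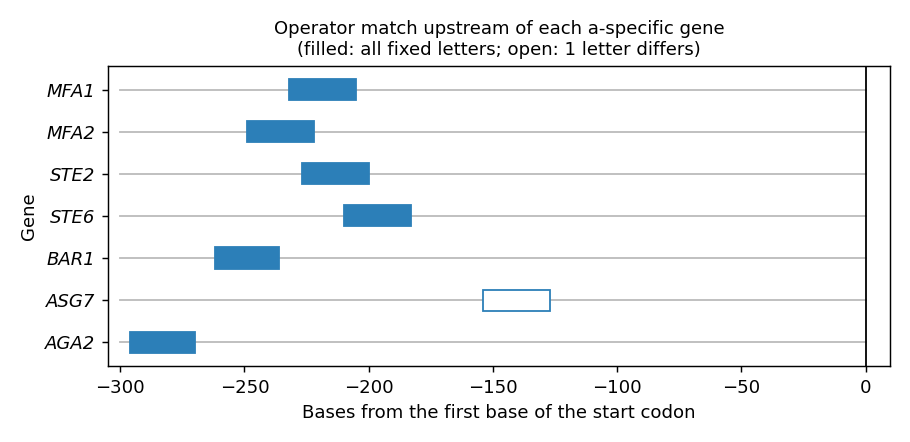
Position of the best operator match in the 300 bases upstream of each a-specific gene, in bases from the first base of the start codon. Filled boxes match every fixed letter, and the open box of ASG7 differs at 1 letter; the boxes lie between 128 and 296 bases upstream.

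Libraries held 74080860 to 97133389 assigned counts. The labels do not state whether the 2 libraries of a group came from different cultures; the p-values below therefore rest on a spread that may be only technical. Ctrl replicate 2 stood apart: the SD of log2 ratios over all tested genes was 0.23 to 0.28 in pairs with it and 0.12 to 0.15 in pairs without it. Of 117 features that lie inside a feature on the opposite strand, 113 had 0 counts in every library, against 51 of 5701 features that overlap no other, so counting ignored strand. None of the 7 a-specific genes overlaps another feature, and 100% of their 50-base stretches occur once in the genome. Sense and antisense reads within them cannot be told apart.

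The strain label was checked against genes that mark each mating type. HMRA1 (YCR097W), the copy of the a1 gene kept at a silent locus and the only a1 copy in the reference, had 0, 2, 0 and 0 counts in Ctrl replicates 1 and 2 and TUDCA replicates 1 and 2. A count of 0 allows up to 3 counts, or 0.0406 CPM (counts scaled by library total and TMM factors, as for all CPM values below) in Ctrl replicate 1; such limits and all Poisson intervals cover counting error only. MATα2 was at 6.71 and 8.98 CPM in the Ctrl libraries and 5.82 and 7.21 CPM in the TUDCA libraries, and the 2 groups overlapped. MATα1, the other gene of the locus, had 7 and 6 counts in Ctrl and 2 and 3 counts in TUDCA. Both levels are uncertain, since 0% of their 50-base stretches are unique. MATα1 and MATα2 also each overlap 1 other feature. The silent copy HMLα2, of the same sequence as MATα2, was listed with only 1 to 11 counts. The 5 α-specific genes summed to 2014 and 2438 CPM in Ctrl and 1585 and 1669 CPM in TUDCA. Most of each sum was the α-factor gene MF(ALPHA)1, at 1542 and 1907 CPM in Ctrl and 1247 and 1309 CPM in TUDCA.

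The a-specific genes were low but detected in every library. Their summed level was 62.8 and 56.6 CPM in Ctrl replicates 1 and 2 and 64.8 and 59.7 CPM in TUDCA replicates 1 and 2. The groups overlapped, with means of 59.7 ± 4.33 CPM in Ctrl and 62.2 ± 3.57 CPM in TUDCA (SD, n = 2 each, as for all means below). STE6 made up more than any other gene, and without it the sums were 25.7, 26.7, 26.0 and 24.2 CPM in the same order. For comparison, LEU2 and URA3, which the strain lacks, had 0 counts in all 4 libraries, and LYS2 had at most 2. HIS3, whose his3Δ1 allele removes only part of the gene, kept 11172 to 17246 counts. Few a cells and little RNA per α cell cannot be told apart in a bulk sample.

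Levels were compared between genes per kilobase of coding length. The median nuclear protein-coding gene was at 52.1 CPM per kilobase and the 10th percentile at 9.30. MFA2 was the highest of the 7, at 15.9 ± 1.93 CPM per kilobase over the 4 libraries (SD, n = 4), above 15.1% of coding genes. MFA1 followed at 12.4 ± 1.06 and STE6 at 9.12 ± 0.994 CPM per kilobase. STE2 was at 7.17 ± 0.294, BAR1 at 5.50 ± 0.337, AGA2 at 4.67 ± 0.340 and ASG7 at 3.44 ± 0.334 CPM per kilobase, ASG7 above 5.88% of coding genes. The 4 libraries of a gene did not overlap those of its neighbours in this order. Counting error was wider for the genes with few counts: the Poisson intervals of AGA2 reached up to 6.12 CPM per kilobase, past all 4 values of BAR1. Those of MFA1 reached up to 16.1, past the lowest values of MFA2. The 2 pheromone genes are the shortest features, at 111 and 117 bases, where a level per length is least certain.

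**Figure D2:**
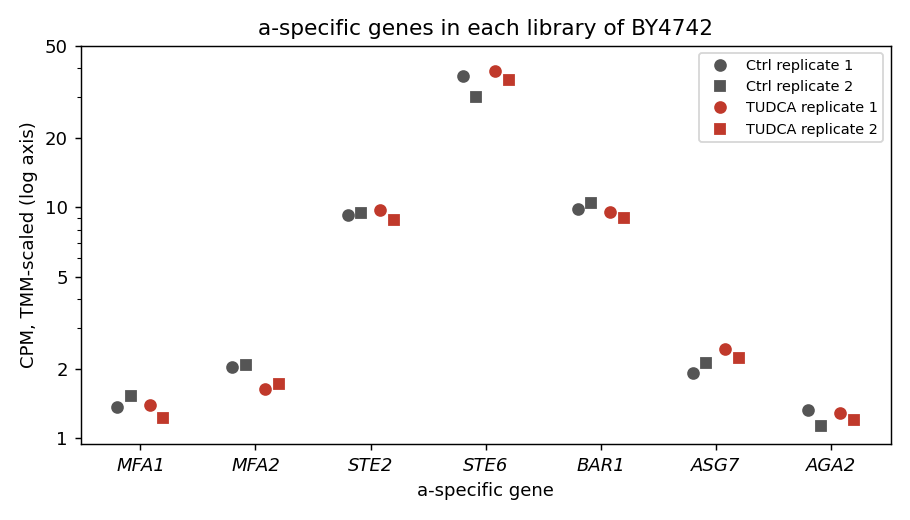
Level of each a-specific gene in CPM on a log axis, 1 point per library, grey for Ctrl and red for TUDCA. STE6 lies between 29.9 and 38.8 CPM, STE2 and BAR1 between 8.81 and 10.4 CPM, and the other 4 genes below 2.5 CPM.

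The pheromone genes come first. MFA1 and MFA2 each encode a precursor of a-factor, a short peptide that is farnesylated, cleaved and exported. MFA1 had 101 and 143 counts in Ctrl and 106 and 106 counts in TUDCA, or 1.37, 1.51, 1.39 and 1.23 CPM. The groups overlapped, and its log2 fold change was -0.14 (SE 0.21). MFA2 had 150 and 196 counts in Ctrl and 124 and 148 counts in TUDCA, or 2.03, 2.08, 1.62 and 1.71 CPM. For MFA2 the TUDCA values were both under the Ctrl values, with a log2 fold change of -0.30 (SE 0.19) and a 95% interval from -0.74 to 0.14, which did not pass (unadjusted p = 0.154, edgeR adjusted p = 0.565). This was the smallest p among the 7. The ratio of MFA2 to MFA1 per kilobase was 1.41 and 1.30 in Ctrl and 1.11 and 1.32 in TUDCA, overlapping between groups.

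STE6 encodes the ABC transporter that exports a-factor. It had 2742 and 2825 counts in Ctrl and 2962 and 3072 counts in TUDCA, or 37.1, 29.9, 38.8 and 35.5 CPM. Ctrl replicate 2 was the lowest and the groups overlapped. The log2 fold change was 0.15 (SE 0.12, edgeR adjusted p = 0.599), and it depended on the Ctrl libraries: without Ctrl replicate 1 it was 0.33 and passed (edgeR adjusted p = 0.0132, where 30.8% of all genes tested passed), and without Ctrl replicate 2 it was 0.0047. UBA1, the convergent gene that ends 185 bases from STE6 and encodes the ubiquitin-activating enzyme, was at 514, 414, 529 and 561 CPM in Ctrl replicates 1 and 2 and TUDCA replicates 1 and 2. Both genes were lowest in Ctrl replicate 2; the part of UBA1 or of that library in the STE6 values was not tested.

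STE2 encodes the receptor for α-factor, and BAR1 the secreted protease that degrades it. STE2 had 682 and 891 counts in Ctrl and 741 and 761 counts in TUDCA, or 9.22, 9.44, 9.71 and 8.81 CPM. The Ctrl values lay between the TUDCA values, and the log2 fold change was -0.012 with a 95% interval from -0.32 to 0.29. Its sign changed to 0.032 when libraries were scaled by totals alone. BAR1 had 725 and 986 counts in Ctrl and 728 and 779 counts in TUDCA, or 9.81, 10.4, 9.54 and 9.01 CPM. Here too the TUDCA values were both under the Ctrl values; the log2 fold change was -0.13, its SE 0.13 and its edgeR adjusted p = 0.675.

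ASG7 encodes a protein that dampens pheromone signalling from the G protein βγ subunit during mating, and AGA2 the adhesion subunit of a-agglutinin. ASG7 had 142 and 199 counts in Ctrl and 185 and 192 counts in TUDCA, or 1.92, 2.11, 2.42 and 2.22 CPM. The TUDCA values were both over the Ctrl values; the log2 fold change was 0.20, its SE 0.19 and its edgeR adjusted p = 0.653. AGA2 had 98 and 106 counts in Ctrl and 98 and 104 counts in TUDCA, or 1.33, 1.12, 1.28 and 1.20 CPM. Its groups overlapped, and the log2 fold change was 0.026 (SE 0.21), which became -0.017 under upper-quartile scaling. A count of 98 has an exact 95% Poisson interval from 79.6 to 119.

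All 7 genes passed the filter on low counts, and 0 of them were called by edgeR's quasi-likelihood test at an adjusted p of 0.05. The background in this comparison was 6 of 6420 genes, or 0.0935%, and 0 of 7 does not stand apart from that share. None of the 7 had an unadjusted p under 0.05 (all genes 8.32%), and DESeq2 and both limma fits also called 0 of them (all genes 0.919% with DESeq2 and 0.0935% with each limma fit). Their median log2 fold change was -0.012, beside -0.0037 over all genes tested, with 3 values above 0 and 4 below. The groups did not overlap for 3 of the 7, beside 47.6% of all genes tested: TUDCA was above Ctrl for ASG7 and below it for MFA2 and BAR1. The 95% intervals of the 7 ran from -0.74 at the lowest to 0.64 at the highest, so none reached a change of 1 log2 unit in either direction.

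**Figure D3:**
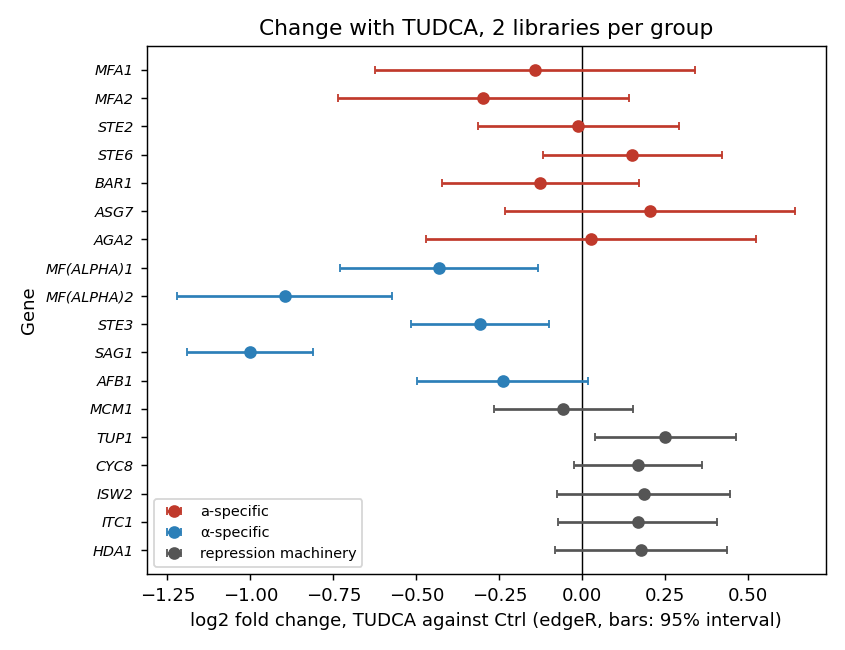
log2 fold change of TUDCA against Ctrl with its 95% interval (edgeR, 2 libraries per group) for the 7 a-specific genes in red, the 5 α-specific genes in blue and 6 genes of the repression machinery in grey. The intervals of all 7 a-specific genes cross 0, from -0.74 to 0.64, while those of SAG1, MF(ALPHA)1, MF(ALPHA)2, STE3 and TUP1 do not; of the genes shown, SAG1, at -1.0, passed the adjusted test.

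The pheromone, receptor and agglutinin genes of the set were each set beside a counterpart in α cells, and the other members were not. Per kilobase, the α-factor gene MF(ALPHA)1 was 252 and 281 times as high as MFA1 in the Ctrl libraries and 200 and 238 times as high in the TUDCA libraries. Against MFA2 it was 179, 216, 180 and 180 times as high in Ctrl replicates 1 and 2 and TUDCA replicates 1 and 2. The minor α-factor gene MF(ALPHA)2 was only 4.64 and 5.37 times as high as MFA1 in Ctrl and 2.71 and 3.27 times as high in TUDCA. The a-factor receptor gene STE3 was 19.7 and 21.4 times as high as STE2 in Ctrl and 15.5 and 18.2 times as high in TUDCA. SAG1, which encodes the α-agglutinin that binds Aga2, was 17.2 and 21.8 times as high as AGA2 in Ctrl and 9.0 and 10.02 times as high in TUDCA.

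Of these 2 agglutinin genes, SAG1 fell from 175 ± 8.46 to 87.4 ± 2.61 CPM (edgeR adjusted p = 0.00465), and AGA2 was at 1.22 ± 0.143 and 1.24 ± 0.0569 CPM. AGA1, which anchors Aga2 to the cell wall of a cells but is also made by α cells, fell too, with a log2 fold change of -0.96 (edgeR adjusted p = 0.00465). Per kilobase, AGA1 was 9.31 and 11.3 times as high as AGA2 in Ctrl and 5.07 and 5.30 times as high in TUDCA. The groups did not overlap for either ratio. An exact two-sided permutation test gave p = 0.333 for each, which is the smallest p that 2 libraries against 2 allow, so this test could not show a difference in a ratio, and no other test of the ratios was run.

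**Figure D4:**
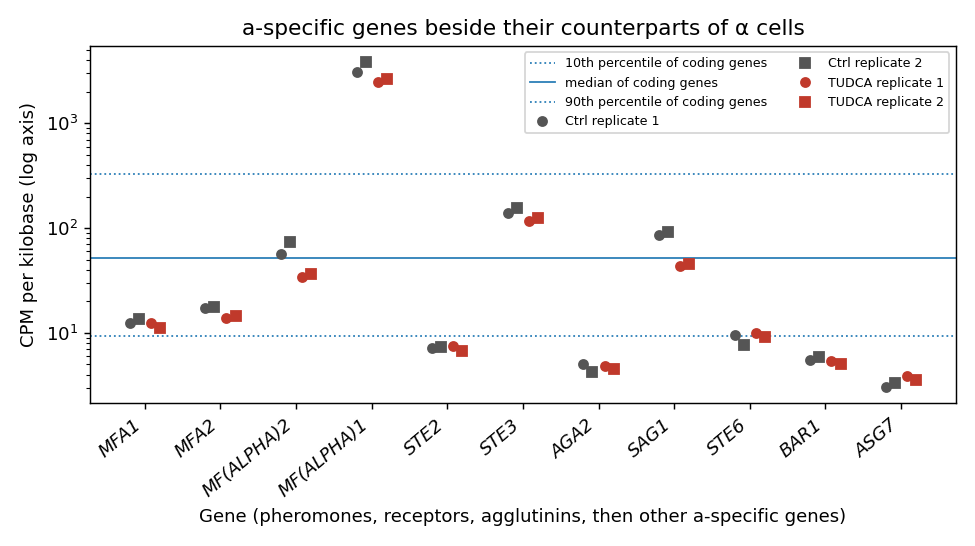
Level per kilobase of coding length, in CPM on a log axis, of a-specific genes and their counterparts of α cells, 1 point per library. Blue lines mark the 10th percentile, median and 90th percentile of nuclear protein-coding genes; the 7 a-specific genes lie between 3.05 and 17.7 CPM per kilobase, below the median of 52.1.

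Genes of the pathway around the set were read from the same test, which called 0.0935% of all genes tested. Of 5 α-specific genes, 1 fell (SAG1) and 4 did not pass, although 4 of the 5 had an unadjusted p under 0.05 (all genes 8.32%), with a median log2 fold change of -0.43 and with TUDCA under Ctrl in all libraries for all 5 (background 23.9%). Of the 4, MF(ALPHA)2 was at -0.90 (edgeR adjusted p = 0.108), MF(ALPHA)1 at -0.43 and STE3 at -0.31 (edgeR adjusted p = 0.544 each). DESeq2 called MF(ALPHA)2 (adjusted p = 5.5e-06) and MF(ALPHA)1 (adjusted p = 0.0473). Without Ctrl replicate 1, MF(ALPHA)2 was at -1.05, MF(ALPHA)1 at -0.56 and STE3 at -0.37. Leaving out Ctrl replicate 2 instead put these genes at -0.70, -0.27 and -0.23 in the same order. MF(ALPHA)2 was at -0.94 without TUDCA replicate 2. Of 6 genes that encode the repression machinery, 0 were called by edgeR, with 1 at an unadjusted p under 0.05 and a median of 0.17. That gene was TUP1, at 236 and 217 CPM in Ctrl and 256 and 282 CPM in TUDCA. Its log2 fold change was 0.25, with an edgeR adjusted p = 0.544. TUP1 was at 0.32 without Ctrl replicate 1 and at 0.19 without Ctrl replicate 2. CYC8 was at 0.17 and MCM1 at -0.057, the latter changing sign to 0.038 without Ctrl replicate 2. The TUDCA values were over the Ctrl values, without overlap, for 5 of these 6 genes, all but MCM1 (background 23.7%). For ISW2, ITC1 and HDA1 the library farthest from the others was Ctrl replicate 2, at 128, 121 and 72.7 CPM. In Ctrl replicate 1 these genes were at 160.1, 145.0 and 91.6 CPM, and in TUDCA replicate 1 at 161.9, 145.2 and 92.4 CPM.

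Of 4 genes of silent mating-type chromatin (SIR1 to SIR4), 0 were called (all genes 0.0935%) and 0 had an unadjusted p under 0.05. The smallest p was that of SIR4, at 0.20. SIR4 was at 0.35 without Ctrl replicate 1 and at 0.081 without Ctrl replicate 2. The enzymes that mature a-factor are made in both mating types. Of 7 such genes, 0 were called and none reached an unadjusted p under 0.05. The median of these 7 was -0.078, and RAM2, which encodes a subunit of the farnesylating enzyme, had the smallest p at -0.16. Of 6 genes whose products work beside the set (AGA1, the G protein genes GPA1, STE4 and STE18, the pheromone transcription factor gene STE12 and the desensitisation gene SST2), 1 fell (AGA1) and 5 did not pass. Their median was -0.19, and all 6 values were below 0. An unadjusted p under 0.05 was reached by 2 of the 6, AGA1 and SST2 (all genes 8.32%). SST2 was at -0.30 (edgeR adjusted p = 0.486). TUDCA was under Ctrl in all libraries for 5 of the 6, all but STE12 (background 23.9%). Of 5 haploid-specific genes, 0 were called, with 1 at an unadjusted p under 0.05, the MAP kinase gene FUS3 at -0.32 (edgeR adjusted p = 0.406). FUS3 was at -0.35 without Ctrl replicate 1 and at -0.27 without Ctrl replicate 2.

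The pattern of STE6 over the 4 libraries was most like that of PRP18, KKQ8 and PPZ2 among 6420 genes, by the root mean square difference of log2 CPM after each gene was centred on its mean. That difference was 0.012 for PRP18 and KKQ8 and 0.013 for PPZ2. These 3 genes shared the low value in Ctrl replicate 2, where PRP18 was at 17.0 CPM against 19.8 to 22.0 CPM in the other libraries. Next to the other a-specific genes, MPF1, which converges on MFA2 across 289 bases, was at 49.6 and 39.9 CPM in Ctrl and 72.6 and 59.9 CPM in TUDCA. Its log2 fold change was 0.57 (edgeR adjusted p = 0.381), while MFA2 had a negative value. MPF1 had the smallest p of all the neighbours tested. CMI8, which converges on MFA1, was at -0.021, and BST1, which converges on STE2, at 0.17. HOP2, which converges on AGA2 across 168 bases, was at 4.01 to 5.72 CPM, and the groups overlapped.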

How the data were processed

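Raw counts per gene were deposited for 4 libraries, with 2 in each group; groups follow the labels. The authors also deposited a normalized signal per gene: within a library the count and this signal differ by a fixed factor (0.899 and 1.15 for Ctrl replicates 1 and 2, 0.930 and 1.05 for TUDCA replicates 1 and 2). Libraries were stranded and poly(A)-selected, per the labels' protocols. Per the submitters' processing notes, STAR 2.5.4b, featureCounts 1.6.0, DESeq2 1.26.0 and build R64 were used. Annotation release, multimapping rule and strand setting are not given in the sources used here.

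Counts were tested in R 4.3.3 with edgeR 4.0.16: filterByExpr at a minimum count of 10 kept 6420 of 7127 genes, TMM factors scaled the libraries, and the quasi-likelihood F test was adjusted by Benjamini-Hochberg over all genes kept, at 0.05. SEs come from the fold change and its F value. DESeq2 1.42.0 and limma 3.58.1 (voom on counts, and log2 of the deposited value plus a pseudocount of 1) were alternatives, as were 3 other scalings, 2 other filters, a replicate block and leaving out each library. The script was tested on simulated counts. Levels per length use the coding length, since 5960 of 6008 protein-coding features are multiples of 3. Promoter sequence is from the RefSeq R64 genome.

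The members, gene lists and naming rule were chosen with earlier results of these data known. The rule names all 7 members, and the called member and the member with the smallest p of each other list. It also names the α-cell counterparts of the pheromone, receptor and agglutinin genes, the regulators and the 3 genes most like the most abundant member.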

Additional observations from a re-analysis of the deposited data

How the results depend on the processing

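Over 13 alternatives, the log2 fold changes of the 7 a-specific genes kept their sign and stayed without a call in 84 of 91 values. The signs of STE2 and AGA2 were not stable: STE2 became 0.032 with library totals only and ran from -0.084 to 0.057 when each library was left out in turn, and AGA2 became -0.017 with upper-quartile factors and ran from -0.092 to 0.16. STE6 ran from 0.0047 to 0.33 and was the only a-specific gene called, without Ctrl replicate 1, where 30.8% of all genes were called. The number of a-specific genes called was thus 0 to 1 when a library was left out and 0 under all other alternatives. The MCM1 value ran from -0.13 to 0.038. Over all genes, 6 were called (2 higher, 4 lower); DESeq2 called 59 (30 higher, 29 lower), upper-quartile factors gave 1 higher, and leaving out 1 library gave 7 to 1976 calls (2 to 1130 higher, 5 to 846 lower). With the replicate block, 353 genes were called (191 higher, 162 lower) and 0 a-specific genes; MF(ALPHA)1, MF(ALPHA)2, STE3, FUS3 and HIS3 gained a call under it. When each library was left out in turn, which leaves 1 in its group, MF(ALPHA)2 ran from -1.05 to -0.70. MF(ALPHA)1 ran from -0.56 to -0.27, STE3 from -0.37 to -0.23, FUS3 from -0.35 to -0.27 and HIS3 from -0.36 to -0.27. TUP1 ran from 0.18 to 0.32, SIR4 from 0.081 to 0.35 and MATα2 from -0.45 to -0.038. The labels do not say that equal numbers mark a shared culture, and the correlation of same-number deviations was 0.18, from 2 pairs only. The cause of these differences was not tested. At about 100 counts per library, MFA1 and AGA2 had the widest SEs of the 7 genes, so small changes in them were not detectable at this depth.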
